A study of Saccharomyces cerevisiae with 6 samples.

Results

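The genes that encode subunits of the RNA polymerases of Saccharomyces cerevisiae were compared between 2 strains. They were chosen by name, as every feature whose standard name begins with RPA, RPB, RPC or RPO followed by a digit, which gave 31 of the 5703 features in the deposited tables. By name, 7 genes belong to polymerase I (RPA), 10 to polymerase II (RPB and RPO21) and 12 to polymerase III (RPC and RPO31), which leaves RPO26 and RPO41. The names hide some sharing between the enzymes, so the genes are also described by the complexes their proteins are known to join. By that count 5 proteins (RPB5, RPB8, RPB10, RPC10 and RPO26) sit in all 3 nuclear polymerases, 2 (RPC40 and RPC19) in polymerases I and III, 7 in polymerase I only, 7 in polymerase II only and 9 in polymerase III only. RPO41 is the mitochondrial RNA polymerase, which stands apart from the nuclear enzymes. RET1, the second-largest subunit of polymerase III, carries a name outside the rule and is given as a partner, not as a member.

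IMF17 makes its glycolytic enzymes from genes on a neochromosome, a synthetic extra chromosome, and IMX2109 makes them from genes in the native genome. The labels give no other allele for either strain. Per the labels' protocols, 3 cultures of each were grown with air in shake flasks on selective minimal medium with glucose and harvested in mid-exponential phase at an optical density of 8, and polyadenylated RNA was sequenced from stranded libraries. Values are FPKM, that is, reads scaled by the length of a feature and by the total of counted reads, so levels of different genes are compared per length, and totals ran from 14696540 to 18801158 counted reads a library. Replicates are cultures, and a lower value in a culture can mean less of an mRNA in every cell or fewer cells that hold it, which cannot be told apart.

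The nuclear RNA polymerases divide transcription between them. Polymerase I makes the large ribosomal RNA precursor, polymerase II makes messenger RNA, and polymerase III makes transfer RNA, the small 5S ribosomal RNA and other short RNAs. Each is built around a pair of large catalytic subunits that form the active site, an assembly platform, a set of small subunits common to all of them, and a stalk that binds initiation factors and emerging RNA. In yeast, polymerase I and III genes are known to move with the genes of ribosome assembly when growth conditions change. Protein complexes need their subunits in fixed proportion, but nothing here measures protein.

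Several facts of the whole data set bear on differences as small as those below. Nuclear chromosomes held 84.2% to 84.9% of counted reads in IMF17 and 89.99% to 91.0% in IMX2109. The total behind FPKM includes the other reads, so this difference enters the deposited values of nuclear genes. Results are therefore also given after libraries were rescaled to their reads on nuclear chromosomes, a total that leaves out the neochromosome and the 2-micron plasmid. Since both strains were counted on the IMF17 assembly, 13 glycolytic genes were listed on the neochromosome and 0 of them on a nuclear chromosome, so this total leaves out their reads in both strains (12.7% to 13.4% of counted reads in IMF17 and 8.62% to 9.58% in IMX2109). The rescaling moved the median log2 fold change over all tested features from -0.069 to 0.025. Replicate 3 of IMX2109 stood apart from replicates 1 and 2 of that strain, with a chi-square per degree of freedom of 18.1 and 8.52 over features (1 is sampling noise), against 3.15 to 7.22 for the other replicate pairs. The IMX2109 libraries also differed among themselves with gene length: relative to the mean of the 6 libraries, nuclear features of 2000 bases and over had a median log2 deviation of -0.069 in replicate 1, 0.0082 in replicate 2 and 0.13 in replicate 3. In IMF17 these medians lay between -0.025 and -0.0072. The part of this in the results below was not tested beyond the values given after its removal.

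Of the 31 genes, 18 were lower in IMF17 and 0 were higher (limma on log2(FPKM + 1), Benjamini-Hochberg over 5425 tested features, threshold 0.05), beside 25.3% of all tested features lower and 12.1% higher. At an unadjusted p under 0.05 the count of higher genes was also 0, and limma-voom on the recovered reads gave 0 as well. The falls were small, from 10.3% of the IMX2109 mean for RPB7 to 26.0% for RPC17, and all 31 genes changed by less than 2-fold. The median log2 fold change of the 31 genes was -0.18, against -0.069 over all tested features. The 3 IMF17 values lay below the 3 IMX2109 values for 21 of the 31 genes, and for 35.1% of all tested features. By name, 4 of 7 polymerase I genes, 6 of 10 polymerase II genes and 7 of 12 polymerase III genes were lower, as was RPO26 and not RPO41.

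Rescaled on nuclear reads, 11 of the 31 were lower and 0 higher, beside 8.85% lower and 19% higher over all tested features. The counts by name became 3 of 7, 4 of 10 and 3 of 12. After median-ratio rescaling 13 were lower (11.7% of all tested features), and after each library's trend with gene length was removed 20 were lower (28% of all tested features). The 11 genes of the nuclear-read scale were lower in all of these fits: RPC17, RPC34, RPB8, RPA43, RPB5, RPA49, RPA34, RPO26, RPB10, RPC40 and RPB9. That count of 11 became 5 when IMF17 replicate 1 was left out and 4 when IMF17 replicate 2 was. Without IMX2109 replicate 3 it was 9, with RPO31 then higher (log2 fold change 0.27 ± 0.08 SE, limma adjusted p = 0.0266).

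**Figure D1:**
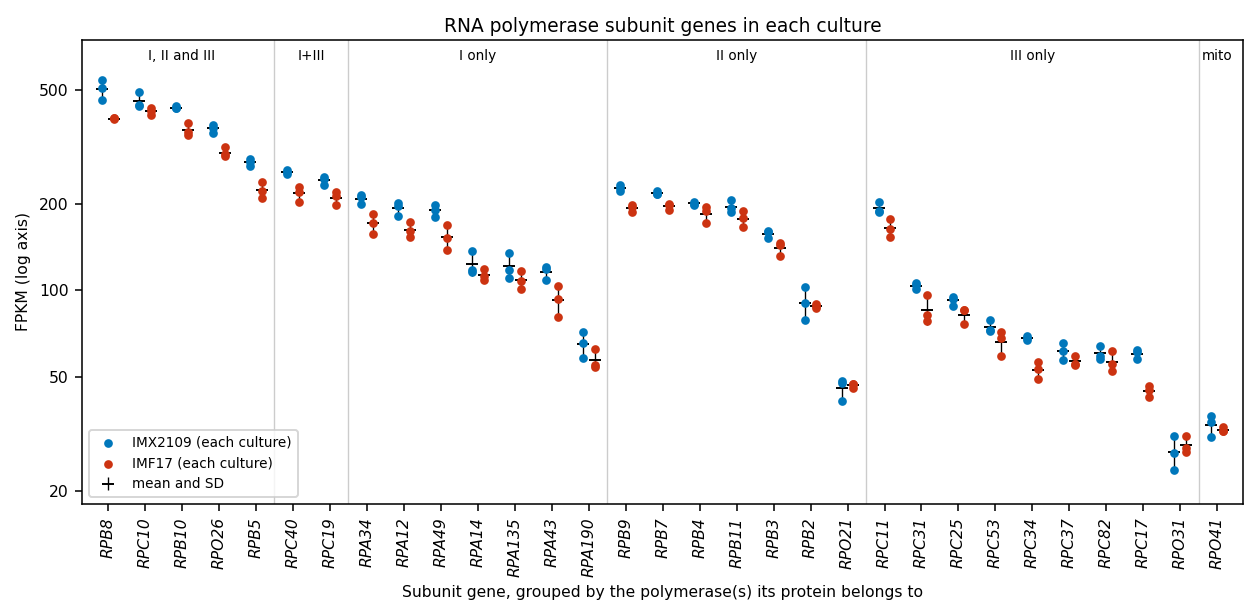
FPKM (log axis) of each subunit gene in each culture, blue for IMX2109 and red for IMF17, with the mean and SD of the 3 cultures as black marks, grouped by the polymerase or polymerases that hold the protein. The 5 shared subunits sit highest, and the IMF17 points lie below the IMX2109 points for 21 of 31 genes, beside 35.1% of all tested features. The large catalytic subunits RPA190, RPA135, RPO21, RPB2 and RPO31 overlap between the strains, as do RPB11, RPA14, RPC37, RPC82 and RPO41.

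The genes differed from each other far more than between strains. In IMX2109 they ran from 27.3 FPKM for RPO31, the largest subunit of polymerase III, to 506 FPKM for RPB8, and 28 of 31 lay above the median nuclear feature of 55.5 FPKM. The 5 shared subunits held the top of the order, from 280.1 FPKM upward, followed by RPC40 and RPC19 at 259 and 243 FPKM. Genes of polymerase III alone were the lowest set, averaging 82.3, 81.2 and 83.8 FPKM in the IMX2109 cultures, against 145, 143 and 149 FPKM for polymerase I and 161, 162 and 166 FPKM for polymerase II. The order of the genes was nearly the same in IMF17 (Spearman's rho 0.994 between the strain means across the 31 genes, a description across genes, which are not replicates). RPB8 and RPC10 exchanged the first and second places, at 398 and 422 FPKM in IMF17.

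Of the 5 subunits common to polymerases I, II and III, 4 fell in IMF17 and RPC10 did not pass the test, with a median log2 fold change of -0.28. RPB8, which binds the largest subunit of each enzyme, stood at 396, 399 and 399 FPKM in the IMF17 cultures and 546, 509 and 462 FPKM in the IMX2109 cultures. The IMF17 cultures were nearly identical, all below the lowest IMX2109 culture, and the difference was 21.3% of the IMX2109 mean (log2 fold change -0.34 ± 0.054 SE, limma adjusted p = 0.000675). RPB5, which contacts incoming DNA, stood at 211, 223 and 239 FPKM in the IMF17 cultures and 272, 281 and 287 FPKM in the IMX2109 cultures (log2 fold change -0.32 ± 0.048 SE, limma adjusted p = 0.000515). RPO26, which helps hold the enzyme's clamp in place, was at 299, 294 and 317 FPKM in the IMF17 cultures and 379.6, 355 and 369.7 FPKM in the IMX2109 cultures (log2 fold change -0.28 ± 0.043 SE, limma adjusted p = 0.000559). Neither gene overlapped between strains.

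The zinc-binding subunits RPB10 and RPC10 join the assembly platform, and the tables list each as 213 bases long. RPB10 stood at 349, 358 and 384 FPKM in the IMF17 cultures and 433, 433 and 441 FPKM in the IMX2109 cultures (log2 fold change -0.26 ± 0.042 SE, limma adjusted p = 0.000799). RPC10 stood at 433, 410.3 and 424 FPKM in the IMF17 cultures and 492, 444 and 441 FPKM in the IMX2109 cultures; all IMF17 values were below all IMX2109 values, and the difference did not pass (log2 fold change -0.12 ± 0.047 SE, limma adjusted p = 0.0721). It passed with the length trend removed (-0.12 with limma adjusted p = 0.0315), under TPM and without IMX2109 replicate 3, and was -0.022 on the nuclear-read scale. The 4 genes that fell kept their calls on that scale, with log2 fold changes of -0.25 for RPB8, -0.23 for RPB5, -0.18 for RPO26 and -0.17 for RPB10.

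RPC40 and RPC19 form the platform dimer that seeds assembly of both polymerase I and polymerase III, and both genes fell. RPC40 stood at 204, 221 and 230.3 FPKM in the IMF17 cultures and 259.6, 263 and 256 FPKM in the IMX2109 cultures (log2 fold change -0.25 ± 0.047 SE, limma adjusted p = 0.00217). RPC19 stood at 198, 213 and 221 FPKM in the IMF17 cultures and 249.8, 246 and 234 FPKM in the IMX2109 cultures (log2 fold change -0.20 ± 0.048 SE, limma adjusted p = 0.00716). The strains did not overlap for either gene. Rescaled on nuclear reads, RPC40 kept its call (-0.15, limma adjusted p = 0.0323) and RPC19 lost it (-0.11, limma adjusted p = 0.123). Their counterparts in polymerase II are RPB3 and RPB11. RPB3 fell from 157 ± 4.65 FPKM to 141 ± 7.82 FPKM (SD, n = 3; limma adjusted p = 0.0241), and RPB11 had a mean of 178 ± 11.3 FPKM for IMF17 and 196 ± 10 FPKM for IMX2109 and did not pass (limma adjusted p = 0.0707; 0.0484 without IMF17 replicate 2). The fall of RPB3 was not called on the nuclear-read scale (limma adjusted p = 0.334), after median-ratio rescaling, or without any one of IMF17 replicate 1 and IMX2109 replicates 1 and 3.

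Of the 7 genes of polymerase I alone, 4 fell: RPA43, RPA49, RPA34 and RPA12. RPA49 and RPA34 encode a dimer that acts in initiation and elongation. RPA49 stood at 139, 152 and 169.6 FPKM in the IMF17 cultures and 181, 191 and 199.6 FPKM in the IMX2109 cultures (log2 fold change -0.31 ± 0.067 SE, limma adjusted p = 0.00422). RPA34 stood at 157, 172 and 186 FPKM in the IMF17 cultures and 211, 200.1 and 216 FPKM in the IMX2109 cultures (log2 fold change -0.29 ± 0.059 SE, limma adjusted p = 0.00337). All IMF17 values of both genes lay below all IMX2109 values, with IMF17 replicate 1 the lowest library for each.

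RPA43 and RPA14 build the stalk, and RPA43 is the contact for the initiation factor Rrn3. RPA43 stood at 81.1, 93.2 and 103 FPKM in the IMF17 cultures and 119, 109 and 121 FPKM in the IMX2109 cultures, with no overlap (log2 fold change -0.33 ± 0.078 SE, limma adjusted p = 0.00733). RPA14 stood at 109, 119 and 112 FPKM in the IMF17 cultures and 137, 116 and 118 FPKM in the IMX2109 cultures, with overlapping groups (log2 fold change -0.12 ± 0.065 SE, limma adjusted p = 0.158). RPA12, the zinc-ribbon subunit for RNA cleavage, had a mean of 163 ± 9.74 FPKM for IMF17 and 194 ± 10.1 FPKM for IMX2109 (SD, n = 3; log2 fold change -0.25 ± 0.054 SE, limma adjusted p = 0.00462). After nuclear-read rescaling RPA49 (-0.22), RPA34 (-0.19) and RPA43 (-0.23) still passed and RPA12 did not (-0.15, limma adjusted p = 0.0585).

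RPA190 and RPA135, the catalytic pair of polymerase I, did not pass. RPA190 (YOR341W; chromosome 15, 953138 to 958132, plus strand) stood at 54.2, 54.9 and 62.4 FPKM in the IMF17 cultures and 58.1, 65.8 and 71.3 FPKM in the IMX2109 cultures (log2 fold change -0.18 ± 0.079 SE, limma adjusted p = 0.0946). RPA135 stood at 101, 108 and 117 FPKM in the IMF17 cultures and 111, 118 and 135 FPKM in the IMX2109 cultures (log2 fold change -0.15 ± 0.074 SE, limma adjusted p = 0.125). The strains overlapped in both genes, and the IMX2109 values were spread widely. Both were called lower with the length trend removed, RPA190 at -0.25 with limma adjusted p = 0.00855 and RPA135 at -0.20 with limma adjusted p = 0.0233, and both were called without IMX2109 replicate 1, RPA190 also without IMF17 replicate 3. RPA43 (YOR340C; chromosome 15, 951353 to 952333, minus strand) is the divergent neighbour of RPA190, with 804 bases and no other feature between them. The ratio of RPA43 to RPA190 FPKM does not depend on a scaling factor shared by all genes of a library. It was 1.5, 1.7 and 1.66 in IMF17 and 2.04, 1.66 and 1.69 in IMX2109, and overlapped. It was not taken with the length trend removed.

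Polymerase II showed the smallest median fall among the nuclear enzymes' own genes, at -0.14 on the log2 scale. The median was -0.25 for polymerase I, -0.17 for polymerase III and -0.069 over all tested features. On the nuclear-read scale the medians were -0.041 for polymerase II, -0.15 for polymerase I, -0.077 for polymerase III and 0.025 over all tested features. These medians were not compared by a test. Of the 7 genes of polymerase II alone, 3 fell: RPB9, RPB7 and RPB3. RPB9, a zinc-ribbon subunit known for start site choice and fidelity, stood at 195, 188 and 199 FPKM in the IMF17 cultures and 222, 228 and 234 FPKM in the IMX2109 cultures (log2 fold change -0.23 ± 0.040 SE, limma adjusted p = 0.00129). It kept its call on the nuclear-read scale (-0.13, limma adjusted p = 0.0263). RPB7 and RPB4 form a stalk that can leave the enzyme. RPB7 stood at 191, 199 and 200.01 FPKM in the IMF17 cultures and 217, 222 and 218 FPKM in the IMX2109 cultures (log2 fold change -0.16 ± 0.038 SE, limma adjusted p = 0.00862). RPB4 stood at 172, 195 and 190.1 FPKM in the IMF17 cultures and 199.6, 205 and 201 FPKM in the IMX2109 cultures and did not pass (log2 fold change -0.12 ± 0.050 SE, limma adjusted p = 0.0777). Neither overlapped between strains, and the call for RPB7 was lost on the nuclear-read scale (-0.061, limma adjusted p = 0.267) and after median-ratio rescaling.

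RPO21 and RPB2 are the catalytic pair of polymerase II, and RPO21 carries the repeated tail that couples transcription to messenger RNA processing. RPO21 (YDL140C; chromosome 4, 205566 to 210767) stood at 47.1, 47.1 and 45.6 FPKM in the IMF17 cultures and 41, 47.4 and 48.3 FPKM in the IMX2109 cultures (log2 fold change 0.036 ± 0.067 SE, limma adjusted p = 0.701). RPB2 stood at 88.3, 86.9 and 90 FPKM in the IMF17 cultures and 78.7, 90.3 and 103 FPKM in the IMX2109 cultures (log2 fold change -0.029 ± 0.080 SE, limma adjusted p = 0.8). The 3 IMF17 cultures lay close together and sat inside the IMX2109 range for both genes, with IMX2109 replicate 1 the lowest library of each. RPO21 was 0.13 and RPB2 0.066 on the nuclear-read scale, and neither passed there (limma adjusted p = 0.168 and 0.572).

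Of the 9 genes of polymerase III alone, 5 fell: RPC17, RPC34, RPC31, RPC11 and RPC25. RPC17, a stalk protein that touches the initiation factor Brf1, had the widest difference of the 31 genes. It stood at 42.6, 46.2 and 44.7 FPKM in the IMF17 cultures and 62.1, 60.9 and 57.5 FPKM in the IMX2109 cultures, 26% lower in IMF17 (log2 fold change -0.43 ± 0.056 SE, limma adjusted p = 0.000186). Its stalk partner RPC25 stood at 76.2, 85.2 and 85.5 FPKM in the IMF17 cultures and 88.1, 93.6 and 95.1 FPKM in the IMX2109 cultures (log2 fold change -0.16 ± 0.057 SE, limma adjusted p = 0.0419). The RPC17 groups were far apart relative to their spread, and those of RPC25 lay next to each other without overlap. The call for RPC25 was lost in 10 of 17 alternative settings, among them the fits without IMF17 replicate 1, IMF17 replicate 2, IMX2109 replicate 2 or IMX2109 replicate 3. The ratio of RPC25 to RPC17 was 1.79, 1.84 and 1.91 in IMF17 and 1.42, 1.54 and 1.65 in IMX2109, higher in every IMF17 culture.

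RPC34, RPC31 and RPC82 form a trimer that opens the promoter, and RPC34 also binds Brf1. RPC34 stood at 49.2, 53 and 56.4 FPKM in the IMF17 cultures and 67.2, 69.3 and 68.3 FPKM in the IMX2109 cultures (log2 fold change -0.36 ± 0.058 SE, limma adjusted p = 0.000746). RPC31 stood at 78.4, 81.9 and 96.7 FPKM in the IMF17 cultures and 104, 101 and 106 FPKM in the IMX2109 cultures (log2 fold change -0.28 ± 0.070 SE, limma adjusted p = 0.00936). Neither overlapped between strains. RPC82, the largest of the trimer, had a mean of 56.3 ± 4.58 FPKM for IMF17 and 60.2 ± 3.36 FPKM for IMX2109 (SD, n = 3), overlapped and did not pass (limma adjusted p = 0.286). RPC11, the zinc-ribbon subunit for RNA cleavage and termination, stood at 164, 153 and 178 FPKM in the IMF17 cultures and 204, 189 and 188 FPKM in the IMX2109 cultures (log2 fold change -0.23 ± 0.057 SE, limma adjusted p = 0.0085). With nuclear-read rescaling RPC17 (-0.33, limma adjusted p = 0.00102) and RPC34 (-0.27, limma adjusted p = 0.00437) kept their calls, and RPC31 (-0.19, limma adjusted p = 0.0643) and RPC11 (-0.14, limma adjusted p = 0.1) lost them.

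RPC53 and RPC37, the dimer of polymerase III that acts in termination and reinitiation, did not pass. RPC53 had a mean of 66.3 ± 6.39 FPKM for IMF17 and 74.6 ± 3.63 FPKM for IMX2109 (SD, n = 3; limma adjusted p = 0.0773; 0.0395 without IMF17 replicate 3), and RPC37 had a mean of 56.5 ± 2.25 FPKM for IMF17 and 61.3 ± 4.27 FPKM for IMX2109 (limma adjusted p = 0.166). RPO31, the largest subunit, stood at 27.4, 28.2 and 31 FPKM in the IMF17 cultures and 23.6, 27.1 and 31.1 FPKM in the IMX2109 cultures (log2 fold change 0.086 ± 0.094 SE, limma adjusted p = 0.5). It had the lowest level of the 31 genes and the highest fold change, but the groups overlapped almost wholly, and IMX2109 replicate 1 was again the lowest library. RET1, its catalytic partner, stood at 39.9, 40.9 and 43.6 FPKM in the IMF17 cultures and 39.8, 44.7 and 50 FPKM in the IMX2109 cultures, overlapped and did not pass (log2 fold change -0.11 ± 0.079 SE, limma adjusted p = 0.324). Across the 3 zinc-ribbon subunits RPA12, RPB9 and RPC11, 1 from each enzyme, the log2 fold changes were -0.25, -0.23 and -0.23. All 3 were called as deposited, beside 32.9% of all tested features under 1000 bases, and RPB9 alone of them on the nuclear-read scale.

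**Figure D2:**
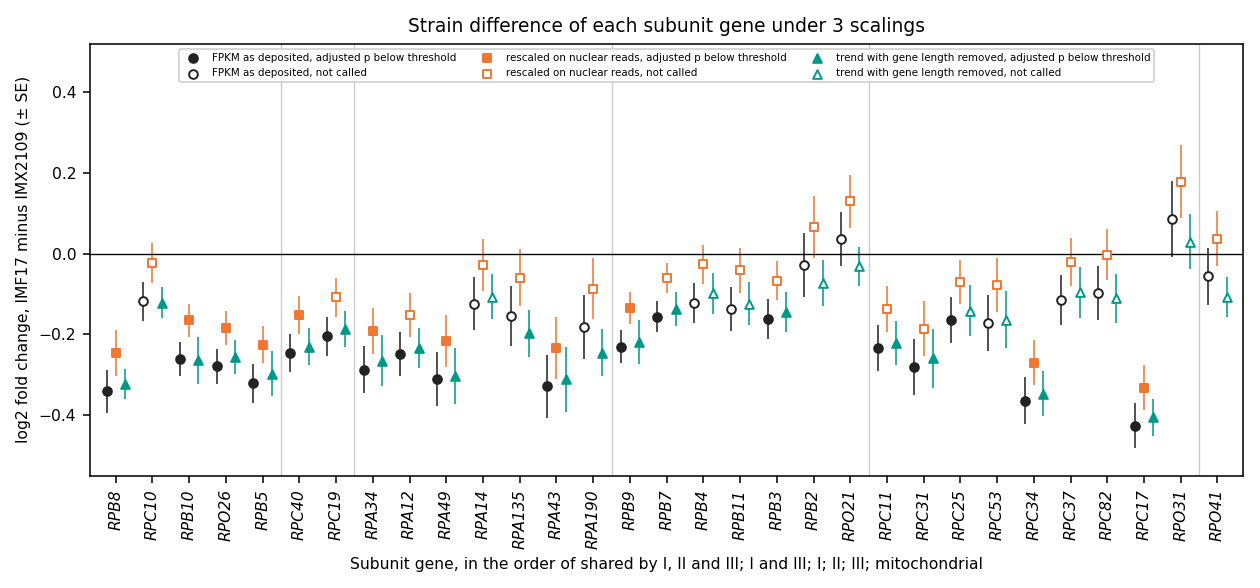
Log2 fold change (IMF17 minus IMX2109, ± SE from limma) of each subunit gene from FPKM as deposited (circles), after rescaling on nuclear reads (squares) and with the trend with gene length removed (triangles), filled where the limma adjusted p was below 0.05. Squares lie above circles for every gene, since rescaling moved all values up, and 11 genes are filled in all 3.

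The mitochondrial enzyme RPO41, a polymerase of the kind found in bacteriophages, stood at 32.2, 32.2 and 33.4 FPKM in the IMF17 cultures and 30.7, 34.8 and 36.5 FPKM in the IMX2109 cultures and did not pass (log2 fold change -0.056 ± 0.071 SE, limma adjusted p = 0.561). Its initiation factor MTF1 stood at 42.4, 44.1 and 42.6 FPKM in the IMF17 cultures and 43.1, 45.5 and 43 FPKM in the IMX2109 cultures (log2 fold change -0.027 ± 0.054 SE, limma adjusted p = 0.719). Both overlapped between strains.

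The 5 catalytic genes RPA190, RPA135, RPO21, RPB2 and RPO31 had 0 called lower and 0 higher (1, RPA190, at an unadjusted p under 0.05; 0 called with limma-voom), with log2 fold changes from -0.18 to 0.086 and a median of -0.029. RET1, also a catalytic subunit, lies outside the name rule and is not counted here (-0.11, not called). The 26 other members had 18 called lower and a median of -0.23. The median was -0.069 over all tested features and -0.048 over those of 2000 bases and over. With the length trend removed, the median was -0.073 for the 5 catalytic genes and -0.071 over all tested features. The 5 catalytic genes and RPO41 are the 6 longest members, and the same counts were taken by feature length, with bounds chosen after the values were seen. Of members under 1000 bases 16 of 21 were lower, beside 32.9% of all tested features of that length. Between 1000 and 2000 bases 2 of 4 were lower, beside 26.9%, and at 2000 bases and over 0 of 6, beside 11%. The longest gene called was RPA49, at 1248 bases, and the 8 longer genes were not called.

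Longer members had lower levels (Spearman's rho -0.695 between IMX2109 level and length, 31 genes), and log2 fold change rose with length (rho 0.324; Pearson's r 0.515 with log10 length). Over 5347 nuclear features tested rho between log2 fold change and length was 0.106. These are descriptions across genes that share 6 libraries. The 5 catalytic genes averaged 63.6, 65.1 and 69.1 FPKM in the IMF17 cultures and 62.4, 69.7 and 77.8 FPKM in the IMX2109 cultures. IMX2109 replicate 1 was the lowest of the 6 and replicate 3 the highest in this average, and also in the median deviation over nuclear features of 2000 bases and over. The mean of the 5 shared subunits over that of the 5 catalytic genes was 5.3, 5.18 and 5.1 in IMF17 and 6.8, 5.8 and 5.14 in IMX2109, so the ratio of IMX2109 replicate 3 fell inside the IMF17 range.

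With each library's length trend removed, 20 of 31 genes were lower and 0 higher, and the rho between log2 fold change and length across members was 0.238. The change from the deposited scale was the gain of RPA190, RPA135 and RPC10 and the loss of RPC25 (-0.14 with limma adjusted p = 0.101). RPO21 (-0.032), RPB2 (-0.073) and RPO31 (0.030) did not pass on this scale either, and RPO21 changed sign. The polymerase I catalytic pair and that of polymerase II thus had different calls here; the difference between them was not tested.

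**Figure D3:**
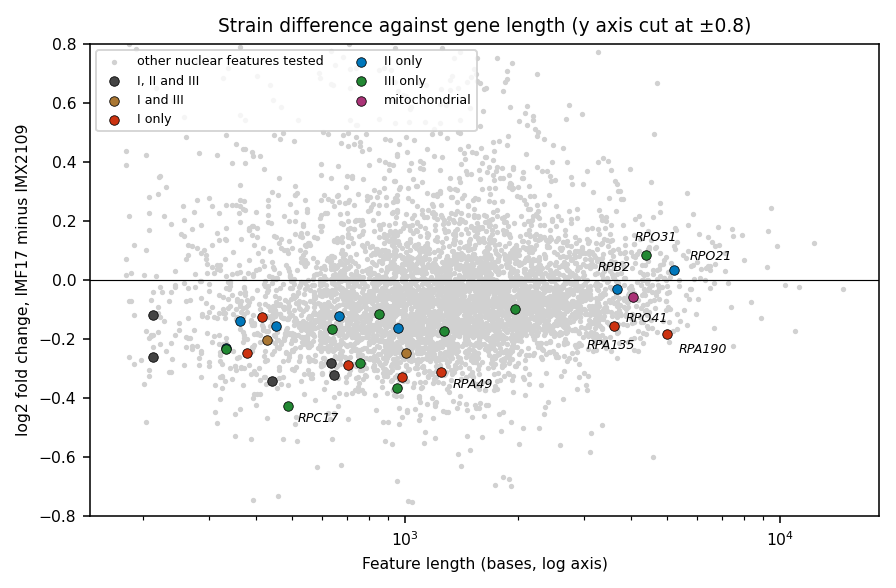
Log2 fold change (IMF17 minus IMX2109, FPKM as deposited) against feature length in bases (log axis) for nuclear features tested (grey) and the 31 subunit genes coloured by polymerase; 100 features lie beyond the y axis limits of ±0.8. Subunit genes up to RPA49 (1248 bases) lie mostly between -0.1 and -0.4, and RPO31, RPO21, RPB2 and RPO41 lie near 0.

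Averaged over the genes of an enzyme, the IMF17 cultures were below all IMX2109 cultures for each set except the catalytic genes. These averages are of FPKM as deposited and were not taken on the nuclear-read scale. The polymerase I set averaged 114, 123 and 132 FPKM in IMF17 against the IMX2109 values given above, the polymerase II set 143, 150.3 and 148 FPKM, and the polymerase III set 67.1, 69.7 and 76 FPKM. The shared subunits averaged 337, 337 and 352 FPKM in IMF17 and 424, 404 and 400.3 FPKM in IMX2109. Ratios between enzymes overlapped between the strains. A scaling factor shared by all genes of a library cannot move them, but removal of the length trend can, and they were not taken on that scale. The polymerase I to polymerase II ratio was 0.792, 0.818 and 0.892 in IMF17 and 0.901, 0.885 and 0.9 in IMX2109, low in IMF17 replicates 1 and 2 and within the IMX2109 range in replicate 3. The polymerase III to polymerase II ratio was 0.468, 0.464 and 0.514 against 0.512, 0.502 and 0.506. IMF17 replicate 3 was the highest IMF17 library in the polymerase I and III averages.

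Of 9 partner pairs, the stalk pair RPC25 and RPC17 differed without overlap, and no share over other gene pairs was taken to set beside this. The ratios of RPA135 to RPA190, RPB2 to RPO21, RPB7 to RPB4, RPA43 to RPA14, RPA49 to RPA34, RPC19 to RPC40, RPB11 to RPB3 and RPC53 to RPC37 overlapped between strains. RPA135 to RPA190 was 1.87, 1.97 and 1.87 in IMF17 and 1.91, 1.79 and 1.9 in IMX2109. RPC19 to RPC40 was 0.971, 0.965 and 0.961 against 0.963, 0.935 and 0.915. Outside these pairs, RPB8 to RPO21 was 8.41, 8.48 and 8.74 in IMF17 and 13.3, 10.7 and 9.58 in IMX2109, also without overlap. These 2 features are 441 and 5202 bases long. From IMX2109 replicate 1 to replicate 3 this ratio fell, while the median deviation of nuclear features of 2000 bases and over rose (-0.069, 0.0082 and 0.13). The part of gene length in the RPB8 to RPO21 ratio was not tested. The pairs were chosen with values known, and the ratios were given no test.

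**Figure D4:**
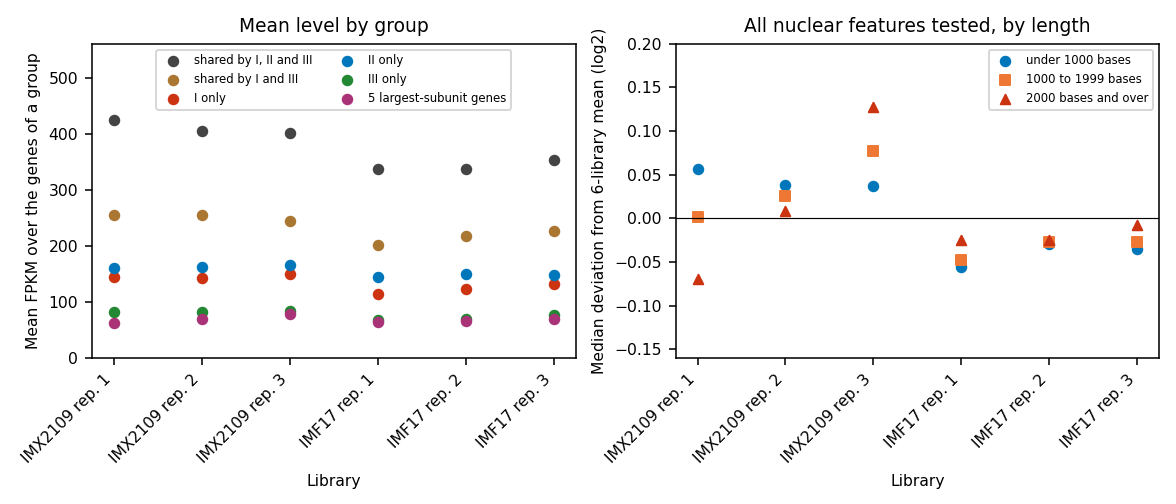
Left, mean FPKM over the genes of each group in each library (axis from 0); right, median log2 deviation from the 6-library mean over nuclear features tested, by feature length. On the left the shared subunits fall from 400.3 to 424 FPKM in IMX2109 to between 337 and 352 FPKM in IMF17 while the 5 catalytic genes overlap; on the right the IMX2109 libraries fan out by length.

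The factors that work with the polymerases were described from lists chosen with earlier results of these data known. Their counts stand beside the 25.3% of all tested features lower and 12.1% higher on the deposited scale. Of 10 polymerase I factors 1 was lower and 0 higher, with a median log2 fold change of -0.066. That gene was RRN9, part of the upstream factor at the ribosomal DNA promoter (log2 fold change -0.18 ± 0.063 SE, limma adjusted p = 0.0439). The others with the smallest p were RRN5 (-0.19), RRN10 (-0.10) and UAF30 (-0.13), which did not pass. Of 10 polymerase III factors 1 was lower and 0 higher, with a median of -0.082: TFC4, a subunit of the promoter-binding factor TFIIIC (log2 fold change -0.23 ± 0.073 SE, limma adjusted p = 0.0268). TFC3 (-0.16), TFC7 (-0.12) and BDP1 (-0.093) followed and did not pass. After nuclear-read rescaling 0 of either list passed.

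Of 18 polymerase II general factors 4 were lower and 0 higher (median -0.10): SPT15, the TATA-binding protein used by all 3 polymerases (log2 fold change -0.19 ± 0.042 SE, limma adjusted p = 0.0045), TOA2 of TFIIA (-0.17), and CCL1 (-0.16) and KIN28 (-0.17), the cyclin and kinase of TFIIH. This count and that of Mediator are close to the 25.3% of all tested features. After nuclear-read rescaling, where 8.85% of all tested features were lower and 19% higher, 0 general factors were lower and 1 was higher, SSL2, a helicase of TFIIH (0.28, limma adjusted p = 0.0187), named after its value was seen. Of 24 Mediator subunits, which link activators to polymerase II, 6 were lower and 0 higher (median -0.13), led by SRB6 (log2 fold change -0.30 ± 0.056 SE, limma adjusted p = 0.0019), MED7 (-0.27), SRB7 (-0.24) and ROX3 (-0.15), and SRB6 and MED7 were lower on the nuclear-read scale. Of 18 polymerase II elongation factors 8 were lower and 0 higher (median -0.15), among them CDC73 (log2 fold change -0.24 ± 0.050 SE, limma adjusted p = 0.00328) and PAF1 (-0.21) of the Paf1 complex, the cleavage factor DST1 (-0.19) and ELF1 (-0.21); CDC73 alone of them was lower on the nuclear-read scale. Of 12 genes of polymerase assembly and import 6 were lower and 0 higher (median -0.16), among them GPN3 (log2 fold change -0.19 ± 0.050 SE, limma adjusted p = 0.0113), RBA50 (-0.25), RVB2 (-0.16) and NPA3 (-0.20), and 0 on the nuclear-read scale. The medians of these lists lay between -0.066 and -0.16, beside -0.18 for the 31 subunit genes and -0.069 for all tested features; no test compared the lists.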

How the data were processed

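The authors deposited 1 table of FPKM values per library, 6 in all, on gene models of a polished assembly of IMF17, per the file headers. STAR 2.5.4a, SAMtools, featureCounts, edgeR and DESeq2 are named in the submitters' processing notes, without their roles. Their handling of multi-mapped reads and strand was not given in the sources used here. FPKM times length gave whole reads for 100% of values (tolerance 0.01 reads). The 31 genes had 325 to 7683 reads a library, each matched the R64 annotation by locus tag (names only), and none overlapped another feature.

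Features with a mean of at least 1 FPKM entered a linear model in limma 3.58.1 (R 4.3.3; trended prior variance, two-sided, log2(FPKM + 1), Benjamini-Hochberg over all 5425), a scale that understates folds of low genes. Fits were checked on simulated reads, where 2.5% of 1.1-fold changes and 92% of 1.25-fold changes were recovered, with 2 and 6 false calls. There 200 genes were changed, every gene had the same dispersion and no trend with length was added. These rates therefore need not hold for the real libraries, where many more features were called. Other work used Python 3.11.15, pandas 2.3.3, numpy 2.4.6, scipy 1.17.1 and matplotlib 3.10.9. The labels give no batch. Members, lists and tests were chosen with earlier results of these data known. All members, RET1 and MTF1 are named, and up to 4 genes with the smallest p of each other list. Of 96 list genes 2 (TFB4 and SOH1) had no match by name. Alternatives were other pseudocounts (0.1 and 5) and filters (none, and 10 FPKM), median-ratio, TPM and nuclear-read rescaling, robust variances, limma-voom on recovered reads, a replicate block, and the omission of each library in turn. Removal of the length trend (robust loess over nuclear features, level kept) and leaving out libraries on the nuclear-read scale were added after the data were seen. Promoter motifs and sequences were not analysed here.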

Additional observations from a re-analysis of the deposited data

How the results depend on the processing

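The deposited scale gave 18 lower and 0 higher of 31 genes, and 11 genes were lower under all 17 alternatives. The count of lower genes became 11 under nuclear-read rescaling, and that of polymerase III by name, 7 as deposited, became 4 under median-ratio and 3 under nuclear-read rescaling. It ran from 16 to 20 when a library was left out, with 0 higher each time. By name it then ran from 4 to 6 for polymerase I, 5 to 7 for polymerase II and 6 to 8 for polymerase III. On the nuclear-read scale, leaving out a library gave 4 to 14 lower and 0 to 1 higher. Under the 17 alternatives, log2 fold changes that changed sign were all uncalled. RPO21 was -0.032 with the length trend removed and ran from -0.037 to 0.078 with a library left out. RPO31 ran from -0.010 to 0.18 with a library left out. Outside these alternatives RPO31 was called higher, on the nuclear-read scale without IMX2109 replicate 3 (0.27, limma adjusted p = 0.0266). RPB2 was 0.038 under median-ratio and 0.066 under nuclear-read rescaling, and ran from -0.13 to 0.067 with a library left out. RPO41 was 0.0090 under median-ratio and 0.037 under nuclear-read rescaling. The cause of these changes was not tested. Deviations of same-numbered libraries correlated at 0.095, -0.052 and 0.137, and those of other-numbered libraries at -0.148 to 0.096. Not every library correlated best with its own number. These values do not settle whether replicate numbers pair the cultures. With the replicate block 23 genes were lower and 0 higher, the 18 and RPA190, RPA135, RPB4, RPC10 and RPC53. With 3 cultures a strain and SEs of 0.04 to 0.09 on the log2 scale, the smallest difference called was -0.16 (RPB7), and a gene that did not pass is not thereby shown to be equal between the strains.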
